A study of Homo sapiens with 9 samples.

Results

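The enzyme fatty acid synthase, encoded by FASN, was examined with 8 genes that supply or regulate it in PANC-1, a human pancreatic adenocarcinoma line, after exposure to TVB-3166, an inhibitor of that enzyme. The other members were SLC25A1, ACLY, ACSS2, AACS, ACACA, ACACB, ME1 and MLXIPL. They were picked by gene name, as all probe sets annotated to exactly 1 gene that is on this list. This gave 21 probe sets of 54675, covering all 9 genes. A probe set is a group of array probes summarised into 1 signal. Of the 21 probe sets, 18 lay above the filter on dim signal (a mean signal of 38.95), and each gene kept at least 1.

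The 9 Affymetrix HG-U133 Plus 2.0 arrays fall into 3 groups of 3: vehicle (DMSO), 0.1 µM and 1.0 µM TVB-3166, each for 72 hours in medium with charcoal-filtered serum. All groups are of the same cell line. Vehicle is given as 0.05% in the source names of the DMSO arrays alone. The descriptions of DMSO replicates 2 and 3 and of all treated arrays give 0.5%. The labels thus do not settle whether the vehicle level was the same in all groups. The groups follow the sample titles, because the treatment field of the arrays titled 1.0 µM reads 0.1 µM and the description of 0.1 µM replicate 1 names DMSO alone. The triplicates are not said to be separate cultures, so the p-values measure only the spread between these arrays, which may be technical. The line was checked against marker genes. The epithelial keratin genes KRT8, KRT18 and KRT19 had signals of at least 9383.5 on every array, and the pancreatic transcription factor gene SOX9 at least 3179.8. EPCAM, of the same list, was between 1152.7 and 1700.8. The keratin gene KRT7, the last of that list, was much lower in DMSO, at 289.8 to 338.0. That is below KLK3 of the prostate list, at 423.7 to 525.4 in DMSO. Summed signals of the acinar and endocrine markers with a probe set (4 of 6 listed) were between 16.7 and 57.6 on all arrays. Those of blood (4 of 5) were between 191.5 and 303.9, endothelial (3 of 3) between 193.5 and 301.7, and adipocyte and hepatocyte markers (5 of 5) between 64.4 and 145.3. For the prostate list, of which 3 of 5 had a probe set, the sum was between 368.5 and 644.2, mostly from KLK3. Few of these other markers were above the filter and tested: 2 of blood, 1 endothelial, 2 of prostate and 1 of adipocyte and hepatocyte. Of these 0 were called at either dose, where 12.3% of all tested genes were called higher and 11.0% lower at 1.0 µM. At 0.1 µM the shares were 6.89% and 5.11%. Of the acinar and endocrine markers 0 were tested, so nothing is said of their change.

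Fatty acid synthase builds palmitate from acetyl-CoA and malonyl-CoA with NADPH as the reductant. Acetyl-CoA is made largely in mitochondria, leaves them as citrate through the carrier encoded by SLC25A1, and is released in the cytosol by ATP citrate lyase (ACLY); acetate is another source, activated by ACSS2. Acetyl-CoA carboxylase then makes malonyl-CoA, from ACACA in the cytosol and from ACACB at the mitochondrial surface, where malonyl-CoA restrains fatty acid oxidation. Malic enzyme (ME1) is a source of NADPH, AACS activates the ketone body acetoacetate for lipid synthesis, and MLXIPL encodes ChREBP, a carbohydrate-sensing transcription factor of lipogenic genes. Many of these genes are known targets of SREBP transcription factors, which act with the factors NF-Y and Sp1.

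Promoter sequences are shown for the 4 members with the largest changes at 1.0 µM that the promoter table holds. They are the 250 bases before an annotated start, from RefSeq on GRCh38.p14, read 5′ to 3′ on the strand of the gene; where a gene has several starts, the first in the table is shown. FASN has no entry. Capitals mark matches, on either strand, to the GC box bound by Sp1 (GGGCGG), the NF-Y box (CCAAT) or the core of the antioxidant response element (TGACNNNGC).
ACSS2, chr20:34874739-34874988, plus strand: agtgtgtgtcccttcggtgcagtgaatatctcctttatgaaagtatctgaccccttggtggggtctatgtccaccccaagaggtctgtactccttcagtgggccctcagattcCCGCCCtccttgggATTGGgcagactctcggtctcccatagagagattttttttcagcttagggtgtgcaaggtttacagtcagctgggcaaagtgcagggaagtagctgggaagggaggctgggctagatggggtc
ME1, chr6:83431052-83431301, minus strand: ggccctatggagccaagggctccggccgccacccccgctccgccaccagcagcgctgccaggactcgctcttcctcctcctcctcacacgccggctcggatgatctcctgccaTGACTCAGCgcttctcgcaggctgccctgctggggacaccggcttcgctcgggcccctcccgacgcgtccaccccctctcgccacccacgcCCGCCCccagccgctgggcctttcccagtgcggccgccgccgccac
MLXIPL, chr7:73624523-73624772, minus strand: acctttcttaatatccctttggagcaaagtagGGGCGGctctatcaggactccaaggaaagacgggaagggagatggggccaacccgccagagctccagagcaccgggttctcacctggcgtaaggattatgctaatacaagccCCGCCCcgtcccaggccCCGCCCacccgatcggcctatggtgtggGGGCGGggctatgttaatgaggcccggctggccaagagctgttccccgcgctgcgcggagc
ACACA, chr17:37406837-37407086, minus strand: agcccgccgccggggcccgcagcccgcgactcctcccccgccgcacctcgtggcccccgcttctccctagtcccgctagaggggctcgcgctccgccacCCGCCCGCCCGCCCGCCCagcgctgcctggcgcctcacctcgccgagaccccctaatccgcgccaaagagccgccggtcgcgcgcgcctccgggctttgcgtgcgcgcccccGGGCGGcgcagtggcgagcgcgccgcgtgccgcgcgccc

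In all, 13 such windows of 8 members were searched, beside 35116 windows of all genes in the table. A GC box was in 11 of the 13 and in 42.6% of all windows, and an NF-Y box was in 7 of the 13, of 5 members, against 32.0% of all. No member window held the sterol regulatory element TCACNCCAC (0.883% of all windows), the E-box CACGTG (6.34%) or the ATF4 composite motif TGATGNAAT (0.888%). The antioxidant core was searched after the sequences had been seen: 10.9% of all windows and 2 of the 13 held it, those of ME1 (TGACTCAGC, bases 137 to 129 before the start) and SLC25A1 (TGACGCGGC, bases 56 to 48, overlapping a GC box). GC boxes overlapped each other in ACACA, whose window is 81.6% G and C against a median of 58.0% over all windows. A match is a run of letters, and windows of 1 gene can overlap, as those of ACLY do.

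**Figure D1:**
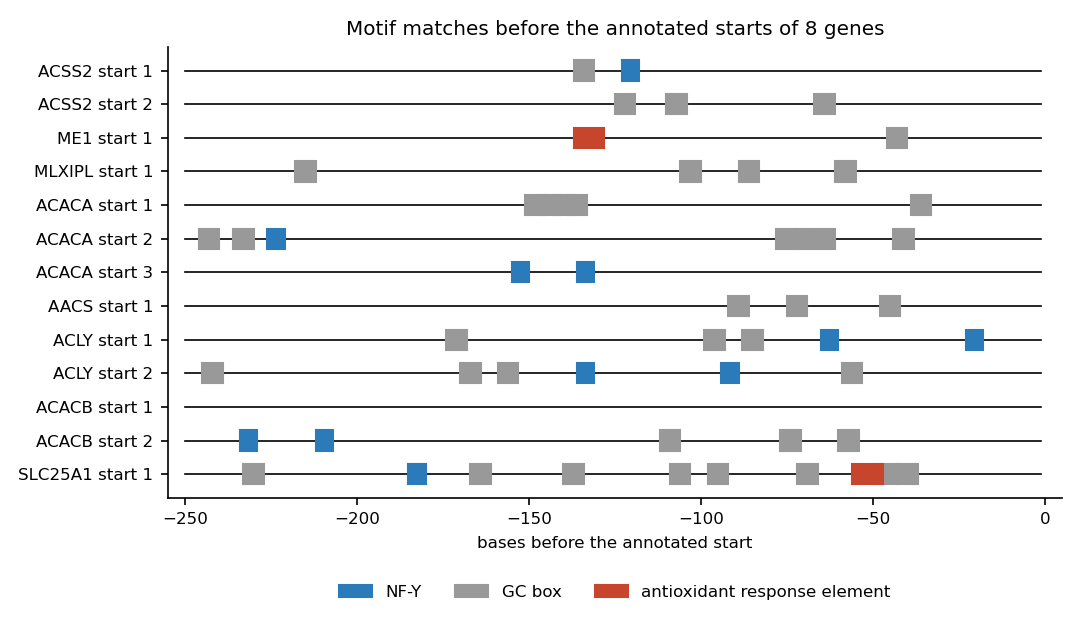
Positions of motif matches in the 250 bases before each annotated start of 8 members, by distance from the start in bases; each line is a window and each box a match. GC boxes lie in 11 of the 13 windows, and the antioxidant core in 1 window each of ME1 and SLC25A1.

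At both doses 7 of the 9 members rose against DMSO and 0 fell. At 1.0 µM these were FASN, ACACA, ACLY, ACSS2, ME1, AACS and MLXIPL; at 0.1 µM SLC25A1 took the place of ACLY. Calls rest on limma's two-sided moderated test with an adjusted p below 0.05 (Benjamini-Hochberg over 13948 genes, each represented by its brightest probe set). Over all tested genes 12.3% were called higher and 11.0% lower at 1.0 µM, and 6.89% and 5.11% at 0.1 µM. The median log2 change of the 9 members was 0.66 at 1.0 µM and 0.91 at 0.1 µM, beside 0.006 and −0.006 over all tested genes. Both doses share the DMSO arrays. Where groups are said below not to overlap, this describes the signals alone, as the share of all tested genes without overlap was not computed. Taken probe set by probe set, 11 of the 18 above the filter were called higher at each dose and 0 lower, where 8.94% and 8.68% of 32768 probe sets were called higher and lower at 1.0 µM, and 4.59% and 3.66% at 0.1 µM. Changes below are log2 differences of (signal + 16), each ± the standard error from limma, between groups of n = 3; the added 16 makes changes of dim genes look smaller. Each array was scaled to 1 target, so a change in total RNA per cell cannot be seen, nor told apart from a change in the number of cells.

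The arrays also differ in the signal of the hybridisation spikes, which parts them into 4 with higher signal (1.0 µM replicate 2, 0.1 µM replicates 1 and 3, DMSO replicate 2) and 5 with lower. In the lower set alone, 4 members were called at 1.0 µM and 3 at 0.1 µM, against 7 each in the higher set and 7 each with the set as a covariate over all 9 arrays. Over all genes, the lower set gave 2652 calls at 1.0 µM and 324 at 0.1 µM, the higher set 2925 and 1897, and all 9 arrays without the covariate 3240 and 1674. With the covariate, all 9 arrays gave 4363 genes called at 1.0 µM and 2233 at 0.1 µM, the background for its member counts. The lower set holds 1 array at 0.1 µM, and the higher set 1 DMSO and 1 array at 1.0 µM. A comparison within the higher set at 1.0 µM is thus of 1 array with 1, its spread taken from the 0.1 µM arrays, and these lone arrays are assumed to vary as those do.

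**Figure D2:**
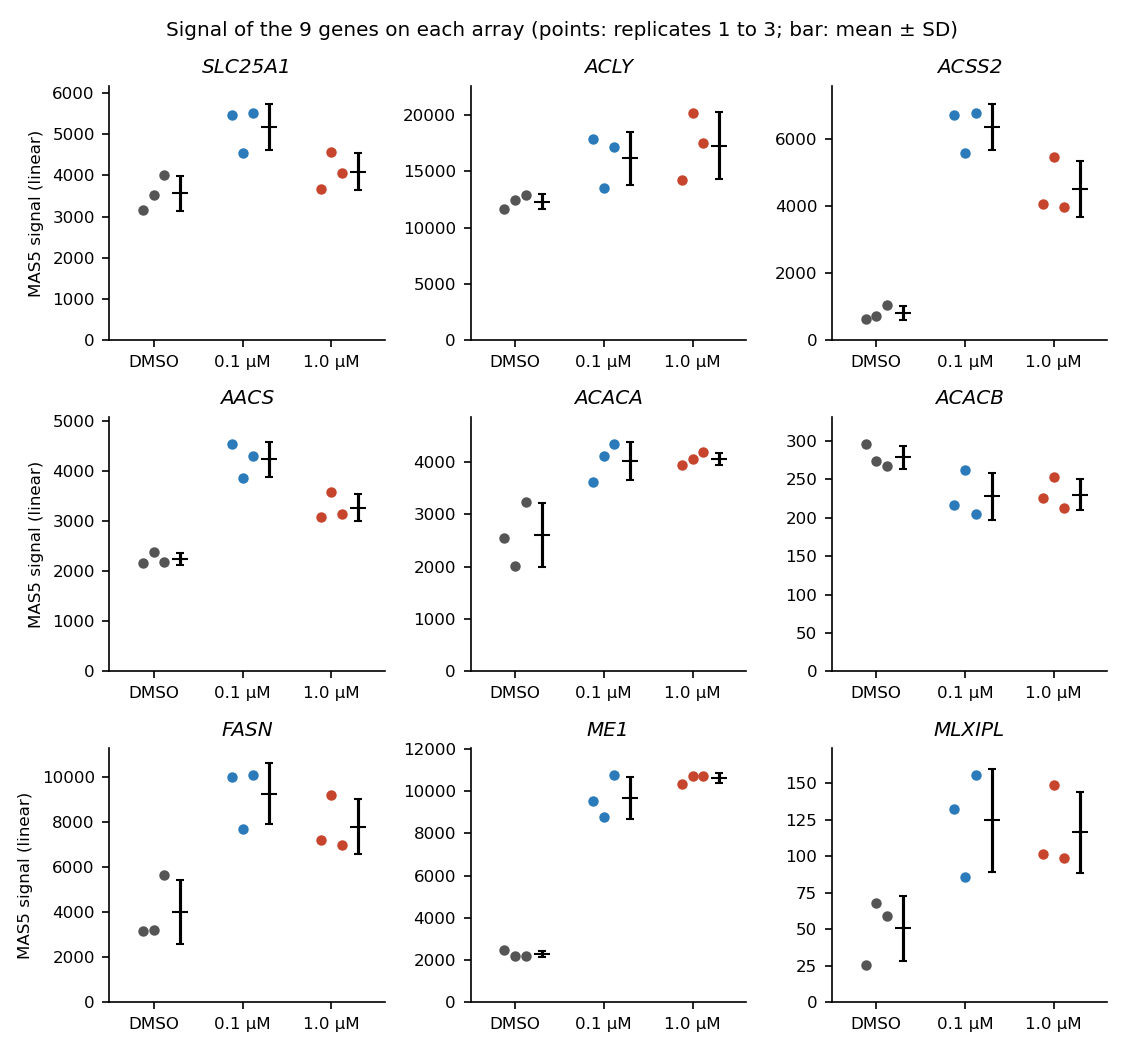
MAS5 signal (linear scale from 0) of each member's brightest probe set on each array, with the mean and SD of the 3 arrays of DMSO, 0.1 µM and 1.0 µM. All treated arrays lie above the DMSO arrays for FASN, ACSS2, ME1, AACS, ACACA, ACLY and MLXIPL, and below them for ACACB. The share of all tested genes that part from DMSO in this way was not computed, so the tally is not read as a result.

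FASN, the gene of the inhibited enzyme, about doubled. Its signals were 3152, 3208 and 5638 in DMSO replicates 1 to 3, 9996, 7715 and 10085 at 0.1 µM and 7213, 9199 and 7000 at 1.0 µM. DMSO replicate 3 stood above the other vehicle arrays, yet every treated array was higher still. The mean was 2.32 times that of DMSO at 0.1 µM and 1.95 times at 1.0 µM, and the log2 changes were 1.25 ± 0.21 (limma adjusted p = 0.00181) and 1.01 ± 0.21 (0.0039). Within the lower spike set FASN was not called at either dose, at 0.87 (limma adjusted p = 0.19) and 0.75 (0.0614), and in the higher set its values were 1.64 and 1.52, the latter of 1 array against 1. The other FASN probe set, 217006_x_at, of a kind that can bind related transcripts, had signals between 8.6 and 88.3 and was not called (0.72 ± 0.48 and 0.79 ± 0.48).

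Among the acetyl-CoA sources, ACSS2 rose by far the most. Its signal was 649, 742 and 1062 in DMSO, 6737, 5582 and 6779 at 0.1 µM and 4083, 5476 and 3989 at 1.0 µM. The 3 groups did not overlap, and the order was DMSO, then 1.0 µM, then 0.1 µM. The changes were 2.96 ± 0.17 at 0.1 µM (limma adjusted p = 8.46e-07) and 2.46 ± 0.17 at 1.0 µM (1.8e-06), a mean signal 7.79 and 5.52 times that of DMSO. ACSS2 has a single probe set, so no second one bears on these values.

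ACLY was read by 3 probe sets that disagreed in size. The brightest, 201128_s_at, had 11631, 12483 and 12867 in DMSO, 17884, 13497 and 17153 at 0.1 µM and 14198, 20160 and 17507 at 1.0 µM. Its changes were 0.38 ± 0.15 at 0.1 µM (limma adjusted p = 0.124) and 0.47 ± 0.15 at 1.0 µM (0.037). The dimmer 210337_s_at rose by 1.46 ± 0.16 and 0.88 ± 0.16, and 201127_s_at by 1.56 ± 0.13 and 1.01 ± 0.13, all called over the probe sets. In 201127_s_at the signals were 1108, 1267 and 1547 in DMSO, 3987, 3364 and 4240 at 0.1 µM and 2736, 2773 and 2407 at 1.0 µM, again with no overlap between groups. The dimmer probe sets had the dose order of ACSS2 and the brightest did not. The mean of the ACLY probe sets gave 1.13 at 0.1 µM (limma adjusted p = 0.00019). The call of the brightest probe set at 1.0 µM was lost with no filter on dim signal, with median centring and without the trend in eBayes (limma adjusted p = 0.067, 0.0902 and 0.0619). It was also lost without any 1 of the 3 DMSO arrays, without 0.1 µM replicate 3 and without 1.0 µM replicate 2 or 3 (adjusted p between 0.0534 and 0.117), and within the lower spike set (0.37, adjusted p = 0.0638), while the higher set gave 0.69 at 1.0 µM and 0.49 at 0.1 µM.

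SLC25A1, the citrate carrier, was called at 0.1 µM and not at 1.0 µM in the fit of all arrays, which does not show that the doses differ. The signals were 3147, 3520 and 4005 in DMSO, 5464, 4533 and 5500 at 0.1 µM and 3663, 4560 and 4045 at 1.0 µM. The 0.1 µM arrays lay above DMSO, and the 1.0 µM arrays overlapped both groups. Changes were 0.54 ± 0.12 at 0.1 µM (limma adjusted p = 0.0134) and 0.20 ± 0.12 at 1.0 µM (0.276; 95% interval −0.06 to 0.47). Without DMSO replicate 1, or 0.1 µM replicate 1 or 3, the call at 0.1 µM was lost (adjusted p = 0.0619, 0.0588 and 0.0735), as it was in the lower spike set (0.35, adjusted p = 0.329; 0.64 in the higher). At 1.0 µM the higher set, with 1 array against 1, gave 0.37 (limma adjusted p = 0.0335), and the value was 0.12 without DMSO replicate 1 or 1.0 µM replicate 2.

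AACS, which activates acetoacetate, had 2177, 2392 and 2179 in DMSO, 4541, 3864 and 4314 at 0.1 µM and 3085, 3580 and 3154 at 1.0 µM. As for ACSS2, the groups did not overlap and the lower dose was the higher in signal. AACS rose by 0.91 ± 0.10 at 0.1 µM (limma adjusted p = 8.71e-05) and by 0.54 ± 0.10 at 1.0 µM (0.00178).

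ACACA, the cytosolic carboxylase, had 2559, 2018 and 3241 in DMSO, 3628, 4115 and 4341 at 0.1 µM and 3940, 4051 and 4185 at 1.0 µM, so that the vehicle arrays were the most spread and all treated arrays were above them. It rose by 0.65 ± 0.14 at 0.1 µM (limma adjusted p = 0.0121) and 0.66 ± 0.14 at 1.0 µM (0.00575). Its second probe set, 214358_at, gave 0.69 ± 0.17 and 0.83 ± 0.17, both called. At 0.1 µM the call for ACACA was lost without 0.1 µM replicate 3 (0.59, limma adjusted p = 0.0669) and in the lower spike set (0.51, 0.157; 0.97 in the higher).

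ACACB, the form at the mitochondrial surface, was not called. Its 49452_at had 295.9, 274.3 and 267.2 in DMSO, 216.7, 262.4 and 205.0 at 0.1 µM and 225.7, 252.9 and 212.4 at 1.0 µM, all treated arrays being just below the vehicle arrays. The differences of −0.28 ± 0.15 at 0.1 µM (limma adjusted p = 0.262; 95% interval −0.60 to 0.04) and −0.26 ± 0.15 at 1.0 µM (0.231; −0.58 to 0.06) have intervals that include 0. The 5 probe sets of ACACB above the filter had values between −0.33 and −0.06 at 0.1 µM and between −0.69 and −0.08 at 1.0 µM, and none was called; 2 more lay under the filter. The change of ACACA was thus called where that of ACACB was not, and whether both changes differ was not tested.

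ME1, the NADPH source, rose at both doses on both probe sets above the filter. The brighter had 2462, 2208 and 2174 in DMSO, 9506, 8777 and 10739 at 0.1 µM and 10315, 10723 and 10723 at 1.0 µM. Replicates of each group were close, and all treated arrays were far above the vehicle arrays. Its changes were 2.07 ± 0.10 at 0.1 µM (limma adjusted p = 2.03e-07) and 2.21 ± 0.10 at 1.0 µM (6.41e-08). On 204058_at the signals were 1981, 1372 and 1613 in DMSO, 5952, 7079 and 7126 at 0.1 µM and 8486, 7511 and 9131 at 1.0 µM, with changes of 2.02 ± 0.14 and 2.34 ± 0.14. There the 1.0 µM arrays all lay above the 0.1 µM arrays, the opposite order to ACSS2 and AACS. On the brighter probe set the doses overlapped, with a difference of 0.135 ± 0.10 (limma adjusted p = 0.653). The remaining probe set, 211204_at, was under the filter with signals from 6.5 to 83.4.

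MLXIPL, the ChREBP gene, was dim. Its signals were 25.7, 67.9 and 59.0 in DMSO, 132.3, 85.9 and 155.5 at 0.1 µM and 101.8, 148.6 and 99.2 at 1.0 µM. Treated arrays were all above vehicle, but DMSO replicate 1 lay under the filter level. The changes were 1.10 ± 0.31 at 0.1 µM (limma adjusted p = 0.0357) and 1.03 ± 0.31 at 1.0 µM (0.0293). Without DMSO replicate 1 they were 0.79 and 0.72 and no longer called (limma adjusted p = 0.122 and 0.104). Both calls were also lost within each spike set, with values between 0.87 and 1.06, and 1 or both of them without DMSO replicate 3, 0.1 µM replicates 1 or 3 or any of the 1.0 µM arrays. With no filter both were lost (limma adjusted p = 0.0676 at 0.1 µM and 0.0556 at 1.0 µM), and with the 6 compared arrays alone the call at 0.1 µM (0.0515). An added constant of 64 in place of 16 took the changes to 0.72 and 0.66, still called.

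**Figure D3:**
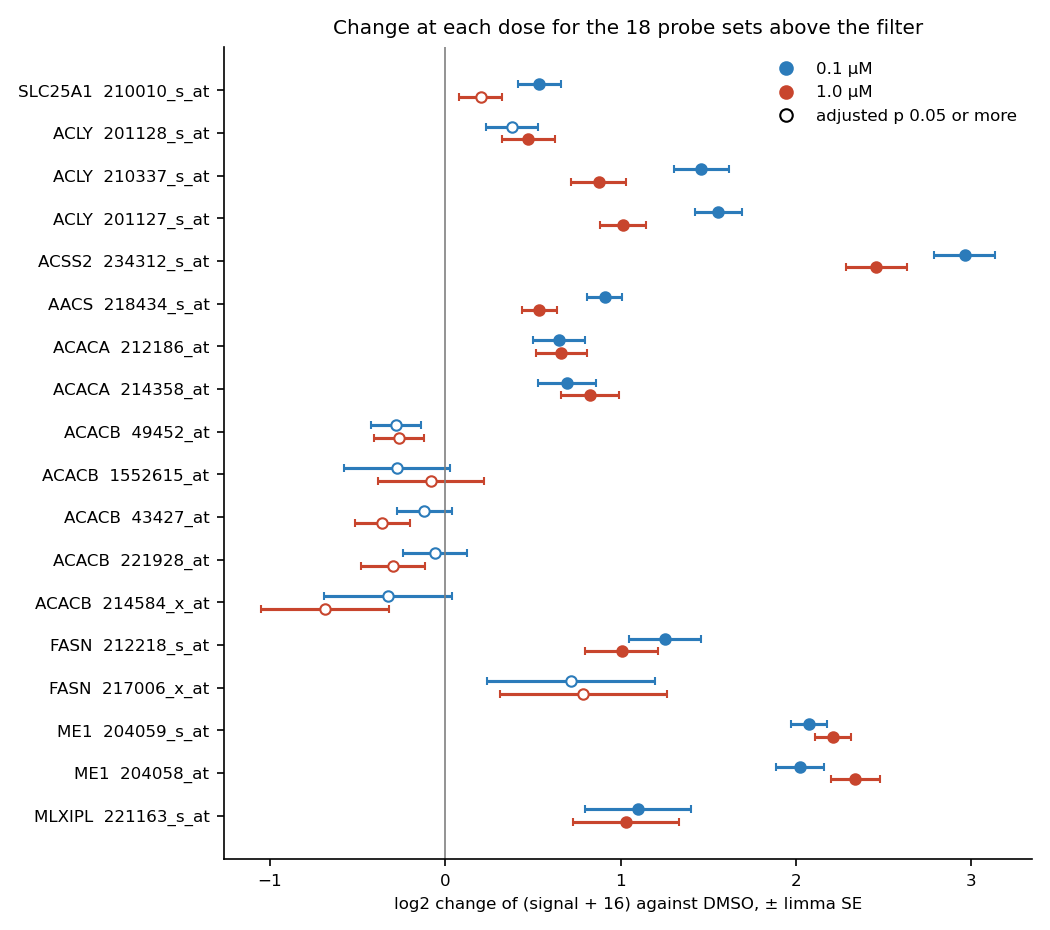
Log2 change of (signal + 16) against DMSO, ± limma standard error, for the 18 probe sets of the 9 members above the filter at 0.1 µM and 1.0 µM; open points have an adjusted p of 0.05 or more over all probe sets. ACSS2 and ME1 are at 2 or above, the 3 probe sets of ACLY run from 0.38 to 1.56 at 0.1 µM, and those of ACACB are all below 0.

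Between the doses, 0 of the 9 members and 0 of the 18 probe sets were called by limma, where 0.387% of genes were called higher and 0.430% lower at 1.0 µM than at 0.1 µM (0.122% and 0.159% of probe sets). At an unadjusted p under 0.05 there were 3 members lower at 1.0 µM and 0 higher, against 12.4% of all genes in either direction. These were ACSS2 (−0.50 ± 0.17, adjusted p = 0.26), AACS (−0.37 ± 0.10, adjusted p = 0.116) and SLC25A1 (−0.34 ± 0.12, adjusted p = 0.284), each from limma with n = 3 arrays per dose. With arrays weighted by their quality all 3 were called lower at 1.0 µM (−0.68, −0.44 and −0.41; limma adjusted p = 0.00452, 0.00274 and 0.0111), and AACS also with the spike set as a covariate (−0.31, 0.0383). These settings raised the calls between the doses over all genes too, from 114 to 1953 with array weights and to 256 with the covariate. FASN differed by −0.25 ± 0.21, with a 95% interval of −0.70 to 0.20. For ACACA the interval was −0.30 to 0.33, for ME1 −0.08 to 0.35 and for MLXIPL −0.74 to 0.59. Among probe sets 5 were lower and 1 higher at an unadjusted p under 0.05, beside 10.8% of all probe sets; the higher one was 204058_at of ME1 (0.32 ± 0.14), and the lower ones included 210337_s_at (−0.58 ± 0.16) and 201127_s_at (−0.54 ± 0.13) of ACLY.

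ME1 was set against each other member within arrays, because the order of the dose means was not the same across members. The brighter ME1 probe set was used, on which the signals of the doses overlapped. The log2 difference between ME1 and ACSS2 within an array was 0.50, 0.65 and 0.66 on the 0.1 µM arrays and 1.33, 0.97 and 1.42 on the 1.0 µM arrays. The doses did not overlap (exact two-sided permutation test, p = 0.1, the smallest that 3 against 3 can give). The 8 members were set against ME1 in this way after their values had been seen. The doses did not overlap for FASN, ACSS2, SLC25A1 and AACS, each with the same exact p. They overlapped for ACACA, ACACB, ACLY and MLXIPL. The share of all tested genes that would part the doses in this way was not computed, so the count is not read as a result. With 3 arrays a dose no p under 0.1 is possible, adjusted or not, so this test cannot decide whether the doses differ.

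**Figure D4:**
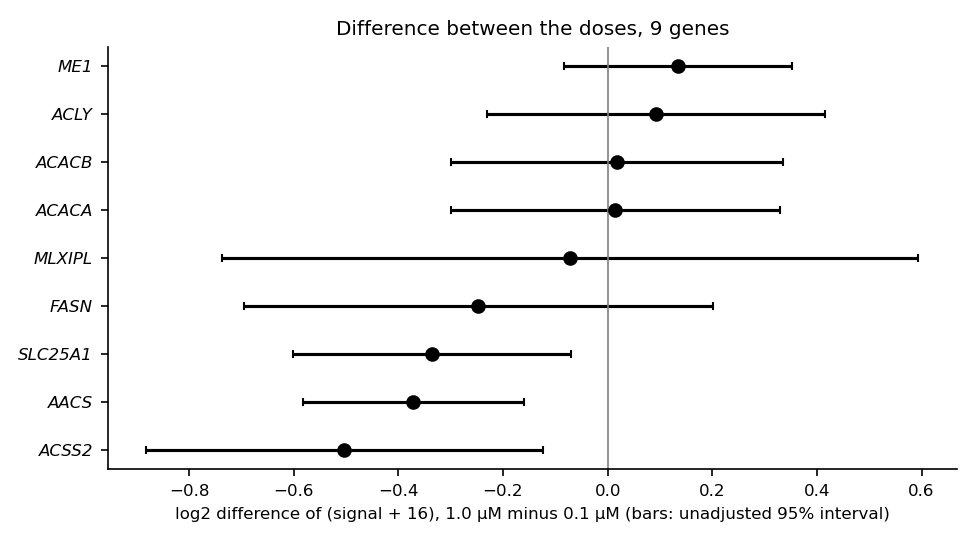
Log2 difference of (signal + 16) between 1.0 µM and 0.1 µM for the 9 members, with unadjusted 95% intervals from limma. The intervals of ACSS2, AACS and SLC25A1 lie below 0 and the other 6 include it; none passed the adjusted threshold.

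Genes of like pattern were found as the 3 with the smallest root mean square difference from a member over the 9 arrays, after centring each on its mean log2 value. For FASN these were SLC2A6 (0.14), LSS (0.16), the lanosterol synthase of sterol synthesis, and CLIP2 (0.16). For AACS they were NSDHL (0.05), another enzyme of sterol synthesis, ORAI3 (0.065) and TMEM97 (0.067). Near ME1 lay ISG20 (0.16), the cystine transporter gene SLC7A11 (0.17) and TRIB3 (0.18). Those of ACSS2 were CCL5 (0.29), AKAP14 (0.30) and IFIT2 (0.32). ACACA had IL4R (0.07), LRRK1 (0.09) and BHLHE40 (0.115), and ACLY had HLA-C (0.06), HSPA9 (0.065) and CARS1 (0.075). SLC25A1 had KCNN4 (0.04), ROGDI (0.077) and TIMM44 (0.077), and MLXIPL had RTP4 (0.14), NFKBIL1 (0.15) and GK3 (0.175). Such distances were not computed for genes at large, so they are not compared between members.

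Genes called in both directions were found in the list of NADPH and acetyl-CoA supply. In this list 18 of 20 genes were tested. At 1.0 µM 4 rose, 3 fell and 11 were not called, and at 0.1 µM 3 rose and 2 fell. The median change of the 18 was −0.03 at 1.0 µM and 0.02 at 0.1 µM. Over all tested genes 12.3% rose and 11.0% fell at 1.0 µM, and 6.89% and 5.11% at 0.1 µM. The counts of this list and of the lists below were not tested against these shares. IDH1, the cytosolic isocitrate dehydrogenase that yields NADPH, rose by 1.34 ± 0.17 at 1.0 µM and 1.27 ± 0.17 at 0.1 µM. Its 3 probe sets ran from 0.56 to 1.38 at 1.0 µM and from 0.42 to 1.27 at 0.1 µM. ACSS1, the mitochondrial acetyl-CoA synthetase, fell by 0.92 ± 0.13 and 0.70 ± 0.13 on the log2 scale, with a mean signal of 538 in DMSO, 324 at 0.1 µM and 276 at 1.0 µM. This is the opposite direction to ACSS2, its cytosolic counterpart. NNT, the mitochondrial transhydrogenase, fell by 0.77 ± 0.11 at 1.0 µM and 0.44 ± 0.11 at 0.1 µM. The 4 probe sets of NNT ran from −0.77 to −0.25 at 1.0 µM and from −0.49 to −0.28 at 0.1 µM. ACAT2, which makes acetoacetyl-CoA in the cytosol, rose by 0.97 ± 0.16 at 1.0 µM and 1.23 ± 0.16 at 0.1 µM. Of the other malic enzymes, the mitochondrial ME2 was at 0.47 ± 0.08 at 1.0 µM (limma adjusted p = 0.00126) and 0.14 ± 0.08 at 0.1 µM (0.306), and ME3 was not called at either (0.18 ± 0.15 and 0.22 ± 0.15).

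Of 15 tested modifiers and partners of the carboxylases and FASN, 4 rose at 1.0 µM, 3 at 0.1 µM and 0 fell, with medians of 0.12 and 0.07. Of all tested genes 12.3% rose and 11.0% fell at 1.0 µM, and 6.89% and 5.11% at 0.1 µM. TRIB3, a pseudokinase linked to carboxylase turnover, rose by 2.02 ± 0.14 at 1.0 µM. MID1IP1, whose product promotes assembly of acetyl-CoA carboxylase into active filaments, rose by 1.25 ± 0.14 at 1.0 µM and 1.35 ± 0.14 at 0.1 µM (mean signal 351 in DMSO, 905 at 0.1 µM and 843 at 1.0 µM). Its relative THRSP was not called (−0.33 ± 0.24 and 0.23 ± 0.24). PRKAB2, a subunit of the kinase AMPK that inhibits the carboxylases, rose by 0.76 ± 0.10 and 0.45 ± 0.10, and PRKAG2, another, was at 0.56 ± 0.09 and 0.23 ± 0.09, called at 1.0 µM. The probe sets of PRKAG2 ranged from −0.04 to 0.68 at 1.0 µM. Among the 5 tested genes of mitochondrial fatty acid synthesis, HSD17B8 rose at 1.0 µM (0.55 ± 0.18, limma adjusted p = 0.0435), 0 fell, and at 0.1 µM 0 were called; the medians were 0.21 and 0.19.

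In the network of ChREBP and its relative MondoA, 6 of 9 genes were tested, 2 rose at 1.0 µM, 3 at 0.1 µM and 0 fell (medians 0.334 and 0.435). The share of all tested genes that rose was 12.3% at 1.0 µM and 6.89% at 0.1 µM, and 11.0% and 5.11% fell. TXNIP, a glucose-responsive target of both factors, rose by 0.78 ± 0.19 at 1.0 µM and 1.13 ± 0.19 at 0.1 µM, and MLX, their shared partner, by 0.30 ± 0.08 at 1.0 µM. MLXIP, which encodes MondoA, was not called (−0.07 ± 0.09 and 0.21 ± 0.09). Of 7 tested transcription factors of lipid synthesis and their regulators, 3 rose at each dose and 0 fell (medians 0.335 and 0.477). SREBF1, encoding SREBP-1, had mean signals of 1510 in DMSO, 3650 at 0.1 µM and 2500 at 1.0 µM. It rose by 1.29 ± 0.20 at 0.1 µM and 0.73 ± 0.20 at 1.0 µM on the log2 scale. Its other probe set was at 0.875 and 0.509. INSIG1, a sterol-regulated retention protein of the SREBP pathway, rose by 1.21 ± 0.10 at 0.1 µM and 0.96 ± 0.10 at 1.0 µM. NR1H3, the LXR-alpha gene, rose by 0.72 ± 0.14 at 0.1 µM and was at 0.34 ± 0.14 at 1.0 µM (limma adjusted p = 0.106). SREBF2 was at 0.60 ± 0.18 at 1.0 µM and 0.48 ± 0.18 at 0.1 µM, but its 3 probe sets ran from −0.32 to 0.68 at 1.0 µM. Between the doses 0 of the genes of these 5 lists were called, where 0.387% of all tested genes were higher and 0.430% lower at 1.0 µM.

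**Figure D5:**
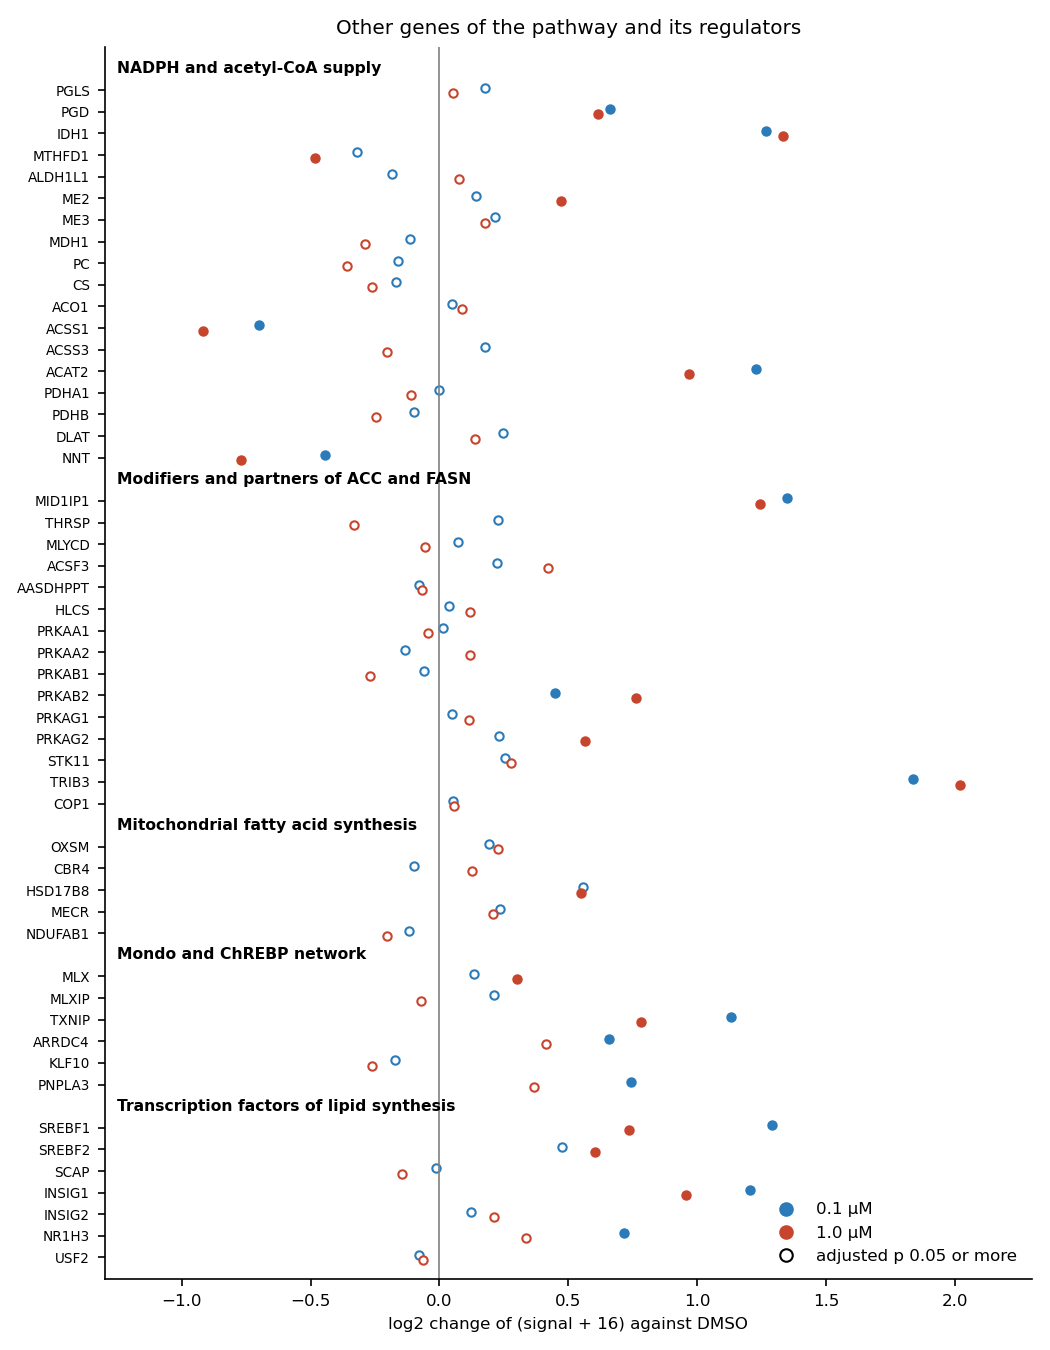
Log2 change of (signal + 16) against DMSO at 0.1 µM and 1.0 µM for the tested genes of 5 lists around fatty acid synthesis; filled points have a limma adjusted p under 0.05. ACSS1 and NNT lie below 0 at both doses, and IDH1, ACAT2, MID1IP1, TRIB3 and TXNIP above.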

How the data were processed

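The authors deposited linear intensity values, 1 for each probe set and array, which are MAS5 signals per the submitters' processing notes, with no version named there. The series text names Partek Genomics Suite and no test. Each array has a mean of 500.06 after 2% is trimmed at each end, a global scaling that was kept. The number of arrays limits the precision. Log2(signal + 16) was fitted for all 3 groups in 1 linear model with limma 3.58.1 in R 4.3.3 (lmFit, eBayes with trend; 6 residual and 5.93 prior degrees of freedom), over all genes, without 62 control probe sets and without those at or below the 40th percentile of mean level. Symbols were those of the probe annotation, checked by Entrez identifier against RefSeq; 41091 probe sets have 1 symbol, 1801 several and 11721 none listed. The brightest probe set stood for a gene, and a second fit took all probe sets. The named genes are the 9 members, up to 4 called genes with the smallest p from each of 5 lists, and the genes of nearest pattern; list genes named beyond these were chosen after their values were seen. The members, lists and alternatives were chosen with earlier results of these data known. The prose gives no protein sequence.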

Additional observations from a re-analysis of the deposited data

How the results depend on the processing

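Over 645 values of the 9 members under other settings, 577 kept their direction and their side of the threshold, 36 lost a call, 10 gained one and 22 changed sign. Many settings alter only the filter, the spread estimate, the replicate block or arrays of the group not compared. These leave the log2 change as it was, so their direction was fixed in advance. Values between the doses had no call to lose. The 577 is thus not a measure of how firm the results are. The calls of ACSS2, ME1 and AACS against DMSO at both doses held under all of the other fits run, with ACSS2 between 2.26 and 2.86 at 1.0 µM and between 2.72 and 3.16 at 0.1 µM, ME1 between 2.18 and 2.27 and between 1.92 and 2.19, and AACS between 0.47 and 0.58 and between 0.82 and 0.97. A call that also needs a 1.5-fold change left 5 members at 1.0 µM, losing AACS and ACLY, and 6 at 0.1 µM, losing SLC25A1. The share of all genes called under this rule was not computed, nor that of all probe sets under the other settings. Leaving out each array in turn, 5 to 7 members were called at 1.0 µM and 4 to 8 at 0.1 µM, and 7 to 11 member probe sets at 0.1 µM; the lowest counts at 0.1 µM (4 and 7) were without 0.1 µM replicate 3. Over all genes these fits called 2343 to 3329 at 1.0 µM and 843 to 2003 at 0.1 µM, with 843 in that without 0.1 µM replicate 3, beside 3240 and 1674 with all arrays. In the lower spike set 4 members were called at 1.0 µM, 3 at 0.1 µM and 5 probe sets at 0.1 µM, with fewer arrays and with 2652 and 324 genes called in all. Between the doses, array weights gave 3 members and 5 probe sets, and the spike covariate 1 member, while the calls over all genes went from 114 to 1953 and 256; the cause was not tested.

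With the replicate number as a block, 6 members were called at each dose, beside 2550 genes in all at 1.0 µM and 1137 at 0.1 µM: ACLY lost its call at 1.0 µM (0.47, limma adjusted p = 0.085) and MLXIPL at 0.1 µM (1.10, 0.0631). Same-numbered arrays correlated at −0.30 to 0.20 in their deviations from the group means, and 0 of 9 arrays correlated best with their own number. Arrays of each number fall in both spike sets, so this check cannot settle whether the numbers pair the arrays.

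All 22 sign changes were between the doses, in members whose brightest probe set had a difference near 0. For ACLY the dimmer probe sets were not near 0, at −0.58 ± 0.16 (210337_s_at) and −0.54 ± 0.13 (201127_s_at). Over the fits without 1 array, ACACA ran from −0.06 to 0.07, ACACB from −0.05 to 0.12, ACLY from −0.03 to 0.23 and MLXIPL from −0.29 to 0.09. ACACA was at −0.04 with median centring, −0.05 with the spike covariate, −0.02 in the lower spike set, −0.06 without 0.1 µM replicate 1 and −0.01 without 1.0 µM replicate 3. ACACB was at −0.01 with quantile normalization and without 0.1 µM replicate 1, −0.03 with median centring, 0.00 with array weights, −0.24 in the lower spike set, −0.13 with the mean of its probe sets and −0.05 without 0.1 µM replicate 3 or 1.0 µM replicate 2. ACLY was at −0.34 with the mean of its probe sets and −0.03 without 0.1 µM replicate 2 or 1.0 µM replicate 2. MLXIPL was at 0.12 with the spike covariate, 0.19 within the lower spike set, 0.05 within the higher, 0.09 without 0.1 µM replicate 3, and 0.00 and 0.02 without 1.0 µM replicates 1 and 3. The 60th percentile filter removed MLXIPL.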

Other observations

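Single probe sets of some list genes stood apart from the one that represented the gene. For HLCS, the ligase that attaches biotin to the carboxylases, the brightest of 2 probe sets was at 0.12 ± 0.18 at 1.0 µM and 0.04 ± 0.18 at 0.1 µM (log2 change against DMSO, limma), while the other was at 1.73 and 1.57. For the 3 probe sets of USF2, a transcription factor of lipogenic genes, the range was −0.06 to 0.51 at 1.0 µM and −0.08 to 0.39 at 0.1 µM.

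The keratin gene KRT7 rose at both doses (1.06 at 1.0 µM and 1.11 at 0.1 µM, limma adjusted p = 4.29e-05 and 7.52e-05), whereas KRT8 and KRT19 fell at 1.0 µM (−0.86 and −0.90, adjusted p = 0.00165 and 0.00258) and were not called at 0.1 µM. The rest of that list of 6 were not called at either dose. At 1.0 µM KRT18 was at −0.30, EPCAM at −0.085 and SOX9 at 0.28 (limma adjusted p = 0.395, 0.708 and 0.21). Over all tested genes 12.3% were called higher and 11.0% lower at 1.0 µM, and 6.89% and 5.11% at 0.1 µM. KRT7, KRT8 and KRT19 are markers of simple epithelium, and whether their shift bears on the members was not tested.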
